A study of Mus musculus with 24 samples.

Results

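The genes of MHC class II antigen presentation were followed in the terminal ileum of conventional and germ-free mice that had received a β2→1-fructan or water. The 10 genes were chosen by their symbol, 1 probe set each, taking the brightest over all arrays where a gene had several. They are Ciita, H2-Aa, H2-Ab1, H2-Eb1, Cd74, H2-DMa, H2-DMb1, H2-Oa, H2-Ob and Ctss. Of these 10 genes, 9 had a probe set of their own among the 18820 genes that could be named this way. H2-DMb1 was read only by a probe set that it shares with its neighbour H2-DMb2, which is given as shared and is in none of the counts.

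All 24 mice were C57BL/6OlaHsd males of 8 weeks on a D12450B diet. The conventional mice were specified pathogen-free and came from a commercial supplier, whereas the germ-free mice came from another breeding colony, so that colonization and colony of origin cannot be told apart. Within each colonization status, 4 mice were gavaged with water, 4 with 10 mg short-chain β2→1-fructan and 4 with 10 mg long-chain β2→1-fructan, daily for 5 days. The fructans differ in chain length. For germ-free mice the short-chain fructan was filtered and the long-chain fructan was irradiated, which broke down some of the longest chains, so that the long-chain fructan was not identical in both kinds of mice. Fructan is a plant fibre that mammalian enzymes do not digest. RNA of whole pieces of ileum was hybridised to Affymetrix Mouse Gene 1.1 ST arrays, 1 per mouse, and the values are log2 intensities with array medians between 4.92 and 4.98. The ileal bile acid genes Fabp6 and Slc10a2 were bright in every mouse, from 12.38 to 12.80 and from 10.74 to 11.42. Arrays of the same group correlated with r from 0.979 to 0.990 across all 35556 probe sets, which are not independent replicates. Arrays of different groups correlated nearly as closely, with r from 0.974 to 0.990.

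MHC class II molecules present peptides from endocytosed proteins to CD4+ T cells. They are carried by dendritic cells, macrophages and B cells, and in the small intestine also by enterocytes, where interferon-γ is known to induce them. CIITA, the product of Ciita, is the coactivator that switches on the class II genes by docking to a protein complex on a conserved promoter module, the X and Y boxes. H2-Aa and H2-Ab1 encode the chains of I-A, H2-Eb1 encodes the β chain of I-E, and Cd74 encodes the invariant chain that guides class II molecules to endosomes. There, cathepsin S (Ctss) trims the invariant chain. H2-DM (H2-DMa with an H2-DMb chain) exchanges the remaining fragment for peptide, and H2-DO (H2-Oa with H2-Ob), found mainly in B cells and thymic epithelium, inhibits H2-DM.

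The promoter module is printed here because it is the feature that class II genes are known to share, whereas their readouts differed below. RefSeq windows of 250 bases before to 50 bases after the start site (GRCm38.p6) were given for 7 of the 10 genes. The letters TGATTGG (Y box) and GNAAC (core of the X box) were searched on both strands, with GNAAC starting 20 to 40 bases before TGATTGG on the same strand. This pair was in the windows of 5 genes, H2-Aa, H2-Eb1, H2-DMb1, H2-Oa and H2-Ob, and in 0.569% of all 32851 windows. TGATTGG alone was in 7.82% and GNAAC alone in 84.8%. These letters were chosen after the sequences were seen. In the following lines, written 5′ to 3′ along the gene's strand, the capitals mark GNAAC and then TGATTGG.
H2-Aa, chr17:34287857-34287919, minus strand: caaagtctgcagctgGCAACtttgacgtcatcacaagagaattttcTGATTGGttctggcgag
H2-Eb1, chr17:34305761-34305822, plus strand: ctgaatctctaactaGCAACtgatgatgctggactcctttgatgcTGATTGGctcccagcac
H2-DMb1, chr17:34153082-34153144, plus strand: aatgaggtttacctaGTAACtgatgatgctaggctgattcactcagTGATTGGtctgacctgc
H2-Oa, chr17:34092288-34092350, plus strand: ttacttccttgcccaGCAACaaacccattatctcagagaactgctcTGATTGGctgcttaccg
H2-Ob, chr17:34238803-34238862, plus strand: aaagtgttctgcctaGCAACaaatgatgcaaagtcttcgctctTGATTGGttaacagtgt
The motifs started 31 bases apart in H2-Aa, H2-DMb1 and H2-Oa, 30 bases apart in H2-Eb1 and 28 bases apart in H2-Ob. TGATTGG began 45 to 63 bases before the start site. The window of Ctss and the windows given for H2-DMa did not hold TGATTGG. The H2-DMa windows began at chr17:34122582 and chr17:34125268, inside the gene, whose span begins at chr17:34119693. Other possible start sites of H2-DMa were not searched, so whether its promoter holds the module was not tested. In Ctss the letters AAANNGAAA, part of the element that interferon regulatory factors bind, began 20 bases before the start site and are in capitals in the next line.
Ctss, chr3:95526741-95526805, plus strand: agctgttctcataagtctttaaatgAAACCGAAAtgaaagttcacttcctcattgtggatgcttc
AAANNGAAA was also in the window of H2-Oa and in 1 of the windows of H2-DMa, and in 10.6% of all windows. A match describes the letters of a window and no binding was measured.

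The largest difference in these genes was between germ-free and conventional mice. Averaged over the 3 gavages, 6 of the 9 genes were called lower in germ-free mice (limma, p under 0.01 and a fold change over 1.3), namely Ciita, H2-Aa, H2-Ab1, H2-Eb1, Cd74 and H2-DMa, by 2.46-fold to 3.84-fold. Of all genes tested, 5.22% were called lower. Ranked by p among all 18820 genes, Cd74, H2-Ab1, H2-Eb1, H2-DMa and H2-Aa held places 1 to 5, and Ciita was at 137. Ctss and H2-Oa were lower by 1.25-fold and 1.28-fold, under the fold threshold, and H2-Ob by 1.07-fold. At an adjusted p under 0.05, 8 of the 9 genes were lower, all but H2-Ob, against 15.4% of all genes. The median log2 change was -1.58 over the 9 genes and 0.03 over all genes. Since the ileum was measured whole, fewer cells of a type and less RNA per cell cannot be told apart.

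**Figure D1:**
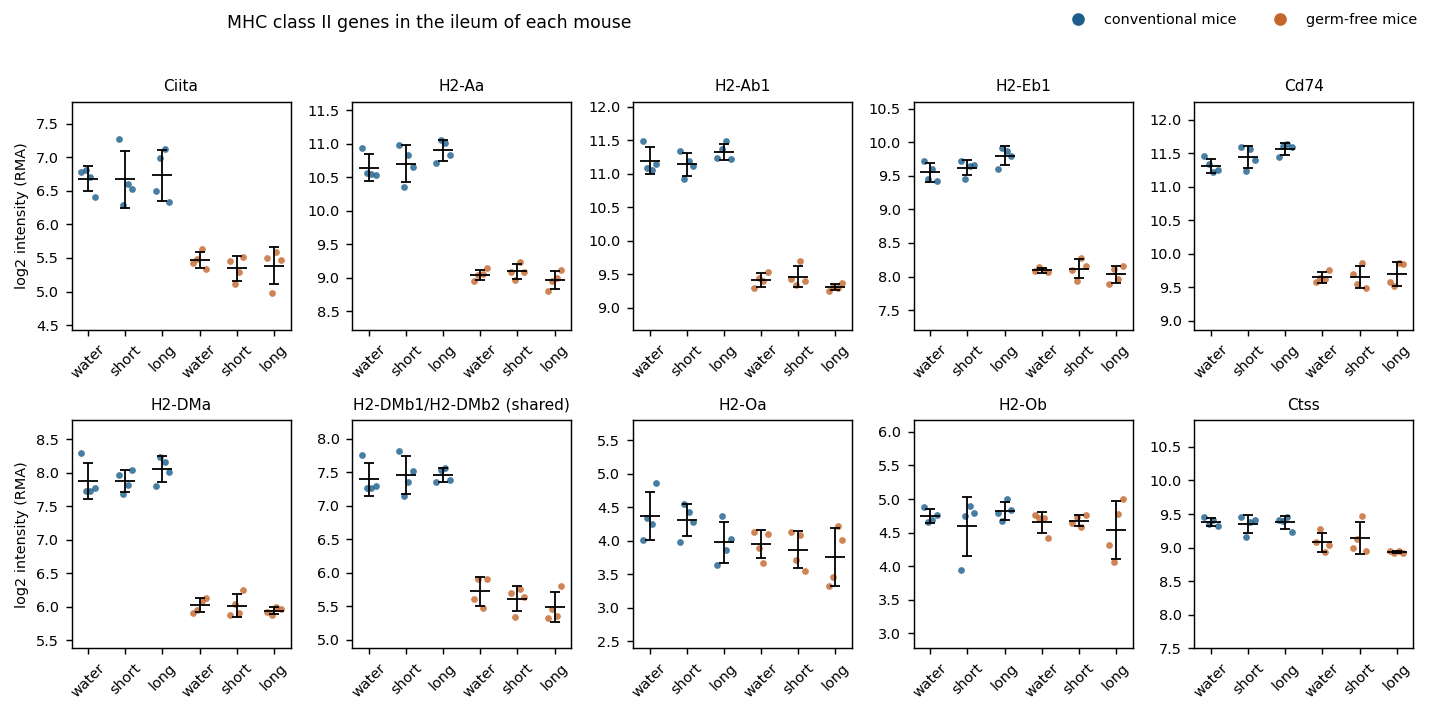
Log2 intensity (RMA) of the 9 class II genes and of the probe set shared by H2-DMb1 and H2-DMb2 in each mouse, by gavage (water, short-chain or long-chain fructan). Points are single mice, bars are the mean ± SD of 4 mice, and every panel spans the same number of log2 units. For Ciita, H2-Aa, H2-Ab1, H2-Eb1, Cd74, H2-DMa and the shared probe set all germ-free mice lie below all conventional mice, whereas for H2-Oa, H2-Ob and Ctss the mice overlap.

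Ciita, the coactivator, lies at chr16:10480014-10531064 (GRCm38.p6). In conventional mice Ciita was at log2 intensities of 6.79, 6.82, 6.71 and 6.41 on water, 7.27, 6.29, 6.60 and 6.53 after short-chain β2→1-fructan and 6.49, 6.99, 7.13 and 6.33 after long-chain β2→1-fructan. Its values in germ-free mice were 5.43, 5.48, 5.63 and 5.34 on water, 5.46, 5.11, 5.29 and 5.52 after short-chain β2→1-fructan and 5.49, 4.98, 5.59 and 5.47 after long-chain β2→1-fructan. All 12 germ-free mice were below all 12 conventional mice, with a gap of 0.65. The change was -1.30 (SE 0.10), which is 2.46-fold lower (limma, adjusted p = 1.26e-10). Ciita varied most among the conventional mice after a fructan, where it spanned 6.29 to 7.27.

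H2-Aa (chr17:34282744-34287823), the α chain of I-A, whose promoter module is printed above, was read in conventional mice at 10.94, 10.57, 10.54 and 10.53 on water, 10.98, 10.35, 10.83 and 10.65 after short-chain β2→1-fructan and 10.72, 11.05, 11.01 and 10.83 after long-chain β2→1-fructan. In germ-free mice it was at 8.96, 9.04, 9.05 and 9.14 on water, 9.08, 8.97, 9.24 and 9.09 after short-chain β2→1-fructan and 8.80, 8.95, 9.00 and 9.11 after long-chain β2→1-fructan. The lowest conventional mouse was 1.11 above the highest germ-free mouse. H2-Aa was 3.28-fold lower in germ-free mice (log2 change -1.71, SE 0.06, adjusted p = 1.47e-17 in limma).

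H2-Ab1 (chr17:34263227-34269418) encodes the partner chain. Its conventional values were 11.49, 11.09, 11.05 and 11.15 on water, 11.34, 10.92, 11.19 and 11.11 after short-chain β2→1-fructan and 11.24, 11.37, 11.48 and 11.22 after long-chain β2→1-fructan. The germ-free values were 9.29, 9.44, 9.39 and 9.54 on water, 9.43, 9.34, 9.70 and 9.40 after short-chain β2→1-fructan and 9.25, 9.31, 9.30 and 9.38 after long-chain β2→1-fructan. Here too the groups did not overlap, with a gap of 1.22 and a log2 change of -1.82 (SE 0.05, 3.54-fold, adjusted p = 2.14e-19 in limma).

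H2-Eb1 (chr17:34305867-34316674) encodes the β chain of I-E, whose α chain gene H2-Ea is not transcribed in C57BL/6 mice. Conventional mice had H2-Eb1 at 9.73, 9.45, 9.60 and 9.42 on water, 9.72, 9.46, 9.64 and 9.67 after short-chain β2→1-fructan and 9.60, 9.92, 9.88 and 9.79 after long-chain β2→1-fructan. Germ-free mice had it at 8.08, 8.14, 8.09 and 8.06 on water, 8.10, 7.94, 8.27 and 8.16 after short-chain β2→1-fructan and 7.89, 8.12, 7.96 and 8.16 after long-chain β2→1-fructan. H2-Eb1 was 2.98-fold lower without overlap (log2 change -1.58, SE 0.05, adjusted p = 3.3e-19 in limma). H2-Ea itself was at 2.41 to 2.95 in all conventional mice and at 2.44 to 2.95 in all germ-free mice, with a change of -0.01 (SE 0.07).

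Cd74 (chr18:60803849-60812652), the invariant chain, had the smallest p of all genes. In conventional mice Cd74 was at 11.45, 11.34, 11.21 and 11.25 on water, 11.59, 11.23, 11.56 and 11.40 after short-chain β2→1-fructan and 11.44, 11.61, 11.64 and 11.59 after long-chain β2→1-fructan. Among germ-free mice it was at 9.58, 9.64, 9.62 and 9.76 on water, 9.69, 9.55, 9.86 and 9.50 after short-chain β2→1-fructan and 9.59, 9.52, 9.87 and 9.84 after long-chain β2→1-fructan. The gap between the 12 germ-free and the 12 conventional mice was 1.35, and the change was -1.77 (SE 0.05, 3.42-fold, adjusted p = 2.14e-19 in limma).

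The peptide-exchange factor fell along with the presenting molecules. H2-DMa (chr17:34119693-34139101) was at 8.29, 7.73, 7.73 and 7.77 on water, 7.96, 7.69, 7.81 and 8.04 after short-chain β2→1-fructan and 7.80, 8.23, 8.16 and 8.01 after long-chain β2→1-fructan in conventional mice. It was at 5.91, 5.95, 6.09 and 6.12 on water, 5.87, 6.04, 5.90 and 6.25 after short-chain β2→1-fructan and 5.92, 5.88, 6.00 and 5.97 after long-chain β2→1-fructan in germ-free mice. With a log2 change of -1.94 (SE 0.07, 3.84-fold, adjusted p = 4.19e-18 in limma) it had the largest change of the 9 genes, and its gap of 1.44 was the 5th widest among genes lower in germ-free mice. The probe set shared by H2-DMb1 (chr17:34153191-34160229) and H2-DMb2 (chr17:34143229-34151553) was at 7.76, 7.27, 7.26 and 7.29 on water, 7.82, 7.14, 7.35 and 7.51 after short-chain β2→1-fructan and 7.35, 7.53, 7.57 and 7.38 after long-chain β2→1-fructan in conventional mice. In germ-free mice the shared probe set was at 5.60, 5.90, 5.48 and 5.91 on water, 5.69, 5.34, 5.76 and 5.65 after short-chain β2→1-fructan and 5.32, 5.46, 5.35 and 5.80 after long-chain β2→1-fructan. It was lower by 1.83 (SE 0.08) on the log2 scale, also without overlap, and it does not tell which of the H2-DMb genes was read.

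Values of all 12 germ-free mice below those of all 12 conventional mice were found for 460 genes, 2.44% of those tested, and for 6 of the 9 class II genes. By the width of the gap among those 460 genes these 6 ranked between 5 and 40. An exact two-sided permutation test within gavages gave p = 5.83e-06 for each of the 6 and for the shared probe set, which is the smallest that its 343000 divisions can give.

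For both genes of the inhibitor H2-DO the groups overlapped, unlike H2-DMa. H2-Oa (chr17:34092379-34095234) was at 4.02, 4.35, 4.25 and 4.86 on water, 3.98, 4.55, 4.44 and 4.28 after short-chain β2→1-fructan and 3.64, 4.37, 3.87 and 4.03 after long-chain β2→1-fructan in conventional mice. In germ-free mice H2-Oa was at 4.14, 3.90, 3.68 and 4.10 on water, 4.13, 3.71, 4.08 and 3.56 after short-chain β2→1-fructan and 3.33, 3.47, 4.23 and 4.02 after long-chain β2→1-fructan. Only 3 germ-free mice were below all conventional mice, and the log2 change was -0.36 (SE 0.12, 1.28-fold, adjusted p = 0.0166 in limma, exact permutation p = 0.00988). H2-Oa was dim, below the array median in all 24 mice, which limits the change that could be read.

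H2-Ob (chr17:34238905-34245908) was at 4.88, 4.65, 4.69 and 4.76 on water, 3.95, 4.75, 4.89 and 4.79 after short-chain β2→1-fructan and 4.80, 4.68, 4.99 and 4.83 after long-chain β2→1-fructan in conventional mice. Germ-free mice had H2-Ob at 4.76, 4.72, 4.71 and 4.41 on water, 4.64, 4.73, 4.58 and 4.76 after short-chain β2→1-fructan and 4.31, 4.06, 4.78 and 5.00 after long-chain β2→1-fructan. The groups overlapped over nearly their whole range, and the change of -0.10 (SE 0.10, 95% interval -0.31 to 0.11) did not pass (adjusted p = 0.493 in limma, exact permutation p = 0.381). H2-Ob was below the array median in 22 of 24 mice. Both H2-Oa and H2-Ob hold the module printed above.

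Ctss (chr3:95526786-95556405), cathepsin S, was above the array median in all 24 mice. Conventional mice had Ctss at 9.45, 9.36, 9.41 and 9.32 on water, 9.45, 9.16, 9.38 and 9.41 after short-chain β2→1-fructan and 9.42, 9.40, 9.46 and 9.23 after long-chain β2→1-fructan. In germ-free mice Ctss was at 9.09, 9.27, 8.93 and 9.04 on water, 9.00, 9.13, 9.48 and 8.95 after short-chain β2→1-fructan and 8.94, 8.92, 8.95 and 8.92 after long-chain β2→1-fructan. Of the 12 germ-free mice, 10 were below all conventional mice. The exceptions were mouse 2 on water and mouse 3 after short-chain β2→1-fructan. The change of -0.32 (SE 0.05, 1.25-fold) had an adjusted p of 1.5e-05 in limma and was under the fold threshold.

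Pairs of genes chosen after the values were seen are given as a description. The log2 ratio of Cd74 to Ctss on an array changed by -1.45 (germ-free minus conventional), without overlap between the groups. The ratios of H2-DMa to H2-Oa and to H2-Ob changed by -1.58 and -1.84, also without overlap, where H2-Oa and H2-Ob were dim. Cd74 and H2-DMa alone already separated the groups, so the lack of overlap in these ratios adds little. The ratio of Cd74 to Ciita changed by -0.48, with overlap.

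**Figure D2:**
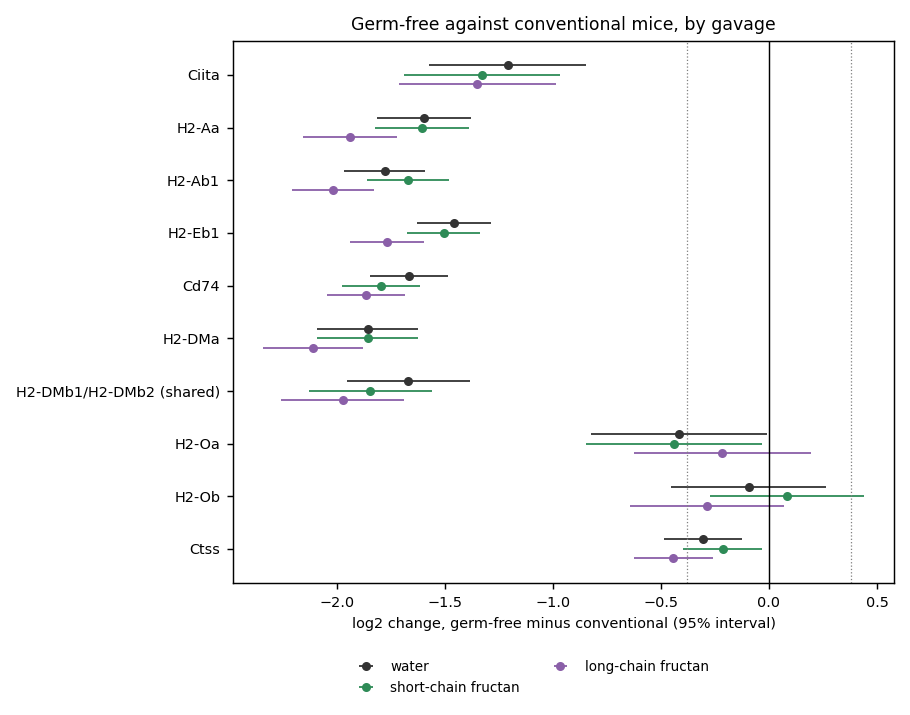
Log2 change of each class II gene, germ-free minus conventional mice, after each gavage (limma, 4 mice against 4). Points are estimates, lines are 95% intervals, and the dotted lines mark a fold change of 1.3. The 6 called genes and the shared probe set lie between -1.21 and -2.11 after every gavage, whereas H2-Oa, H2-Ob and Ctss lie between -0.44 and 0.08.

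The difference was found after every gavage. On water, the same 6 genes were called lower (5.96% of all genes were called lower), after short-chain β2→1-fructan again these 6 (4.47% of all genes) and after long-chain β2→1-fructan these 6 and Ctss (6.26% of all genes). Cd74 was lower by 3.17-fold on water, 3.47-fold after short-chain and 3.64-fold after long-chain β2→1-fructan. For H2-DMa the folds were 3.62, 3.62 and 4.31, and for Ciita 2.31, 2.51 and 2.55. Ctss was 1.36-fold lower after long-chain β2→1-fructan (adjusted p = 0.00086 in limma), where the 4 germ-free mice lay between 8.92 and 8.95. On water it was 1.23-fold and after short-chain β2→1-fructan 1.16-fold lower. A difference between gavages was not shown for Ctss, whose interaction with long-chain β2→1-fructan was -0.14 (95% interval -0.40 to 0.12). These 3 comparisons use separate mice.

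The fructans themselves gave no called change in these genes, which does not show that their effect was small. None of the 9 genes was called in any of the 8 comparisons that involve a fructan, by limma or by the intensity-based moderated t that the methods of the study name. The shares of all genes called were 0.409% (short-chain) and 0.313% (long-chain) against water in conventional mice, and 0.579% and 0.855% in germ-free mice. With shares this low, 0 of 9 called does not set these genes apart from other genes. Some intervals also reached beyond the fold threshold. After long-chain β2→1-fructan in conventional mice they ran from -0.309 to 0.415 for Ciita and from -0.799 to 0.018 for H2-Oa. That of H2-Ab1, from -0.055 to 0.323, stayed within the threshold. At an unadjusted p under 0.05, short-chain β2→1-fructan against water gave 0 of the 9 genes in conventional mice (5.22% of all genes were at this level) and 0 in germ-free mice (5.71% of all genes). Long-chain β2→1-fructan against water gave 3 of the 9 genes at this level in conventional mice (5.67% of all genes) and 0 in germ-free mice (8.74% of all genes). The comparisons of both fructans with water share the water mice.

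The 3 genes at an unadjusted p under 0.05 after long-chain β2→1-fructan in conventional mice were Cd74, H2-Eb1 and H2-Aa. Cd74 was at 11.45, 11.34, 11.21 and 11.25 on water and at 11.44, 11.61, 11.64 and 11.59 after long-chain β2→1-fructan, a difference of 0.25 (95% interval 0.07 to 0.43), with 1 treated mouse inside the range on water. H2-Eb1 differed by 0.25 (interval 0.08 to 0.42) and H2-Aa by 0.26 (interval 0.04 to 0.48). These are at most 1.2-fold, so that none reached the threshold of 1.3. Their unadjusted p were 0.00735, 0.00593 and 0.0219 in limma, and after adjustment over all genes each was at 0.864. The exact permutation p were 0.0571 for Cd74 and 0.0857 for H2-Eb1 and H2-Aa, where 4 against 4 mice can give 0.029 at best. H2-Ab1 differed by 0.13, H2-DMa by 0.17 and H2-Oa by -0.39 (interval -0.80 to 0.02), none of which passed. Over the 9 genes the median was 0.13, with 7 above 0, and over all genes it was -0.02.

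In germ-free mice the differences after long-chain β2→1-fructan ranged from -0.19 for H2-Oa to 0.06 for Cd74, with 8 of 9 below 0 and a median of -0.09 (all genes 0.00). Intervals there reached from -0.30 to 0.14 for H2-Aa, from -0.30 to 0.08 for H2-Ab1 and from -0.13 to 0.24 for Cd74. Whether long-chain β2→1-fructan acted differently by colonization was tested as an interaction. For H2-Eb1 it was -0.31 (SE 0.12, unadjusted p = 0.0131 in limma) and for H2-Aa -0.34 (SE 0.15, unadjusted p = 0.0313 in limma). These were 2 of 9 genes at an unadjusted p under 0.05, against 3.74% of all genes. Both had an adjusted p of 1, and 0 of 9 genes were called, against 0.531% of all genes. For the interaction with short-chain β2→1-fructan 0 of 9 genes were called, against 0.707% of all genes, and 0 were at an unadjusted p under 0.05, against 5.45% of all genes.

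**Figure D3:**
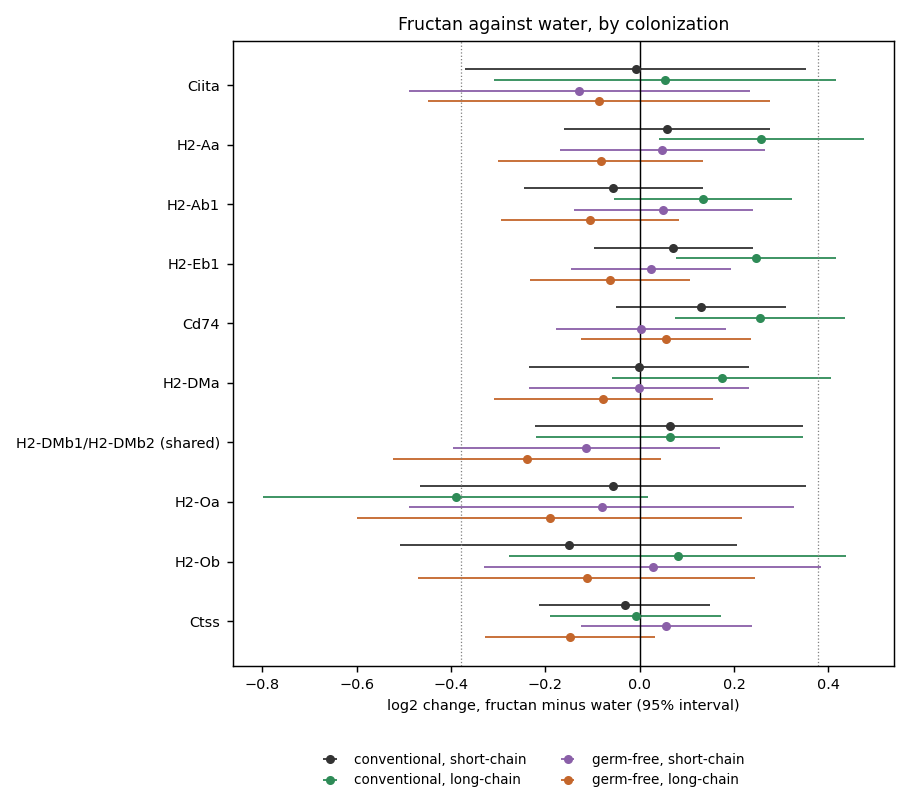
Log2 change of each class II gene after a fructan, fructan minus water, in conventional and germ-free mice (limma, 4 mice against 4). Points are estimates, lines are 95% intervals, and the dotted lines mark a fold change of 1.3. All estimates lie between -0.39 (H2-Oa, long-chain fructan, conventional mice) and 0.26 (H2-Aa, long-chain fructan, conventional mice).

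Both fructans were given at the same dose and time and were compared with each other, as 2 pairs. In germ-free mice they were also sterilized differently, so that this pair does not differ in chain length alone. In conventional mice long-chain minus short-chain β2→1-fructan was 0.19 for H2-Ab1 (95% interval 0.00 to 0.38), 0.18 for H2-Eb1 (0.01 to 0.35) and 0.20 for H2-Aa (-0.02 to 0.42). Of the 9 genes 0 were called, while 0.213% of all genes were. At an unadjusted p under 0.05 in limma there were 2 of 9, and 3.63% of all genes. In germ-free mice the differences ran from -0.20 for Ctss (interval -0.39 to -0.02) to 0.05 for Cd74 (-0.13 to 0.23). There 0 of 9 genes were called, against 1.41% of all genes. At an unadjusted p under 0.05 there was 1 of 9, Ctss, a share near the 12.7% of all genes at this level. The intervals do not show that the fructans acted alike.

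Between mice of the same group, the presenting molecules, Cd74 and H2-DMa were positively correlated, least so H2-DMa with Cd74. After centring on the group means, Pearson's r over the 24 mice was between 0.32 and 0.90 (median 0.67) for the 10 pairs among Cd74, H2-Aa, H2-Ab1, H2-Eb1 and H2-DMa. For Ciita with these 5 genes it was 0.41 to 0.61, for Ctss 0.02 to 0.60, for H2-Oa -0.23 to 0.33 and for H2-Ob -0.16 to 0.10. These values are a description, since the genes were read on the same arrays. Conventional mouse 1 on water was the highest of its group for H2-Aa, H2-Ab1, H2-Eb1, Cd74, H2-DMa and Ctss, and its means over several other lists, on the centred log2 scale, were also the highest of its group, among them T cell (0.88), plasma cell (0.72), class I (0.38) and interferon-γ genes (0.34). The genes outside the list that followed the mean of the 9 genes most closely within groups were Trgv1 (a γδ T cell receptor segment, r = 0.88), Zmynd11 (0.84), Prl3d3 (0.78), H2-Eb2 (0.78), Panx1 (0.78), Arel1 (0.77), Gimap4 (0.76) and Ankib1 (0.75). They were picked as the highest r among all genes, where some high r arise by chance, and were not tested. Without centring, their r over the 24 mice ran from -0.22 for Prl3d3 to 0.98 for Trgv1. H2-Eb2, another class II β gene, was dim, at 2.99 to 4.03 in all mice.

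Other genes of the pathway changed to very different degrees. Among 8 measured genes of other class II chains and peptide loading, 1 was called lower in germ-free mice (Lgmn, asparaginyl endopeptidase, -0.49, SE 0.05), and the median was -0.20. The cathepsin genes Ctsl (-0.37), Ctsz (-0.23) and Ctsh (-0.16) were lower at an adjusted p under 0.05 but under the fold threshold, Ctsd was at 0.14 and Ifi30, the lysosomal thiol reductase, was at -0.02 (SE 0.04). Among the 9 measured subunits and partners of the protein complex that holds CIITA on the promoter, none was called, and the median was 0.06. Rfx5, which binds the X box, was at -0.23 (SE 0.06), Rfxap at 0.21 (SE 0.06) and Kat2b, an acetyltransferase, at -0.31 (SE 0.05), while Nfya, Nfyb and Nfyc, which bind the Y box, lay between 0.04 and 0.15. At an unadjusted p under 0.05 there were 3 of these 9 genes, Rfx5, Rfxap and Kat2b, beside 41.9% of all genes at this level.

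Genes of the interferon-γ response were lower as well. Of 20 measured genes 12 were called lower and 0 higher, with a median of -0.74. The chemokine genes Cxcl9 (-1.94, SE 0.19, 3.83-fold) and Cxcl10 (-1.33, SE 0.13) attract T cells, Gbp8 (-1.35) encodes a guanylate-binding protein, and Irf1 (-1.05, SE 0.09) encodes a factor that activates the interferon-γ-inducible promoter of Ciita. Irf8 was at -0.93 and Ubd at -0.93. Ifng itself was at -0.06 (SE 0.06), its receptor gene Ifngr1 at 0.30 (SE 0.05, under the fold threshold) and Cxcl11 at 0.30. Ubd was also called in the interaction with long-chain β2→1-fructan (-1.01, SE 0.34, unadjusted p = 0.00684 in limma), where 0.531% of all genes were called. In conventional mice the mean of the 20 genes, on the centred log2 scale, was 0.13 to 0.34 on water and 0.22 to 0.54 after long-chain β2→1-fructan. A link of these values to the class II genes was not tested.

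Class I presentation was lower in 11 of 16 measured genes, with a median of -0.59. The immunoproteasome genes Psmb8 (-2.14, SE 0.10, 4.39-fold), Psmb9 (-1.28) and Psmb10 (-0.86) and the peptide transporter gene Tap1 (-1.44, SE 0.12) fell most, while H2-K1, a class I heavy chain, was lower by 1.33-fold and B2m by 1.25-fold, the latter under the threshold. Psmb8, Psmb9 and Tap1 lie in the class II region of the MHC. The chaperone genes Calr (0.07) and Pdia3 (0.14) were not called. For costimulation, 3 of 10 genes were called lower, Cd274 (-0.88), Ctla4 (-0.57) and Cd28 (-0.48). Cd80 (-0.30), Cd86 (-0.15) and Cd40 (-0.06), which antigen-presenting cells carry, were not called.

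**Figure D4:**
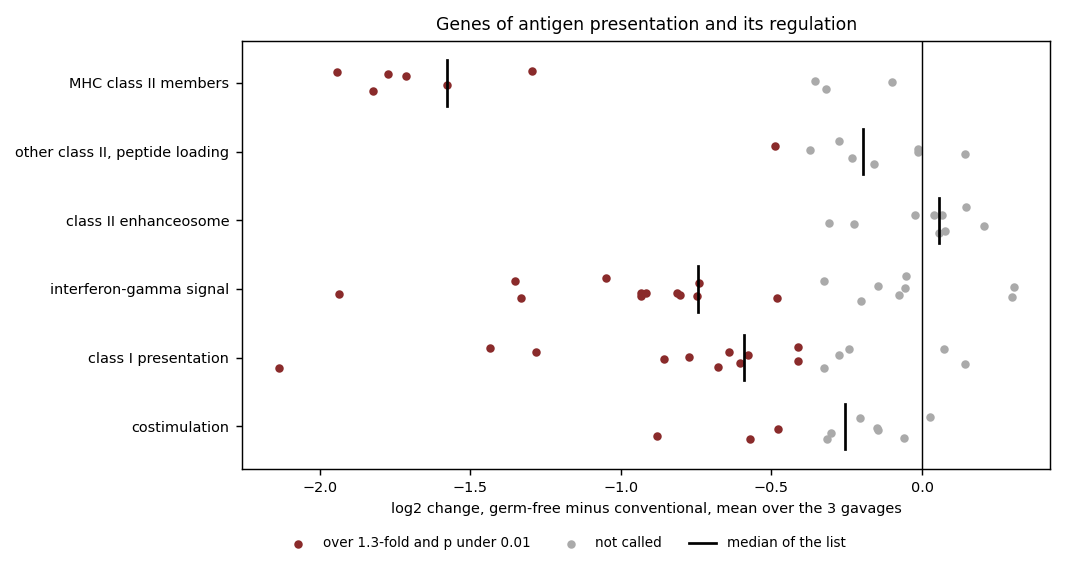
Log2 change of single genes, germ-free minus conventional mice, mean over the 3 gavages, for 6 lists of antigen presentation and its regulation. Each point is a gene, dark points passed p under 0.01 with a fold change over 1.3 in limma, and the black line is the median of the list. Of the class II genes, 6 of 9 lie below -1, the interferon-γ list spreads from -1.94 to 0.30 and the class I list from -2.14 to 0.14, and the list of the promoter complex lies between -0.31 and 0.21.

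Markers of the cells that can carry class II molecules were set beside these values, as the mean of the centred log2 values of each list per mouse. Dendritic cell markers, 10 in all, had 2 called lower (Xcr1, -0.44, and Clec9a, -0.41) and 1 higher (Cd209a, 0.54), and their mean ranged from -0.06 to 0.23 in conventional and from -0.20 to 0.04 in germ-free mice. Of 10 macrophage markers 4 were called lower (Csf1r -0.67, C1qb -0.53, C1qc -0.48 and Cx3cr1 -0.46), with means from 0.03 to 0.26 and from -0.30 to 0.05. Of 10 B cell markers 3 were called lower (Cd79a -0.77, Cd37 -0.66 and Cd79b -0.51), whereas Ms4a1 was at -0.05 and Pax5 at 0.08. None of these 3 lists separated all germ-free from all conventional mice, as the mean of the 9 class II genes did. The B cell means overlapped only through germ-free mice 3 and 4 after long-chain β2→1-fructan (0.52 and 0.59). The macrophage means overlapped only through germ-free mouse 3 after short-chain β2→1-fructan (0.05) and conventional mouse 4 on water (0.03). The part of these markers in the class II differences was not tested. Some of these markers were dim, which limits the change that could be read. In germ-free mice Ms4a1 was at 3.25 to 5.00 and Bank1 at 3.93 to 5.03. With dim genes left out, fewer B cell and dendritic cell markers were called lower. The mean of the 9 class II genes was between 0.42 and 0.79 in conventional and between -0.82 and -0.46 in germ-free mice.

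Of the other lists, T cell and plasma cell markers separated all germ-free from all conventional mice. The ILC3 and smooth muscle markers did so narrowly, and epithelial and adipocyte markers overlapped. Of 7 T cell markers 5 were called lower (Cd3g -2.43, Cd3e -2.10, Cd8a -1.83, Cd3d -0.55 and Cd5 -0.55), with means from 0.37 to 0.88 in conventional and from -0.67 to -0.39 in germ-free mice. Of 7 plasma cell markers 5 were called lower (Jchain -2.80), with means from 0.34 to 0.72 and from -0.78 to -0.09. Markers of type 3 innate lymphoid cells (ILC3), which can also carry class II molecules, had 2 of 6 called lower (Il7r -0.81 and Il23r -0.70), with means from -0.03 to 0.31 and from -0.31 to -0.07. Of 12 epithelial markers 1 was called lower, and the means stayed between -0.05 and 0.10 in all mice. Smooth muscle markers were called lower in 6 of 8, with means from 0.08 to 0.37 in conventional and from -0.83 to 0.04 in germ-free mice. All 6 adipocyte markers were called higher (0.57 to 2.38, against 2.99% of all genes called higher), with means from -1.37 to 0.01 and from -0.43 to 1.52. The part of the T cell, plasma cell and ILC3 markers in the class II differences was not tested. With the adipocyte and the smooth muscle means of each mouse as covariates, the same 6 genes and Ctss were called lower. This choice was made after the data were seen. Cd74 was then at -1.73 (SE 0.13), H2-DMa at -1.78 (SE 0.16) and Ciita at -1.37 (SE 0.25). The SE without covariates was 0.05 for Cd74 and 0.10 for Ciita. Since the smooth muscle mean itself separated all germ-free from all conventional mice, this fit cannot tell tissue composition from colonization.

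**Figure D5:**
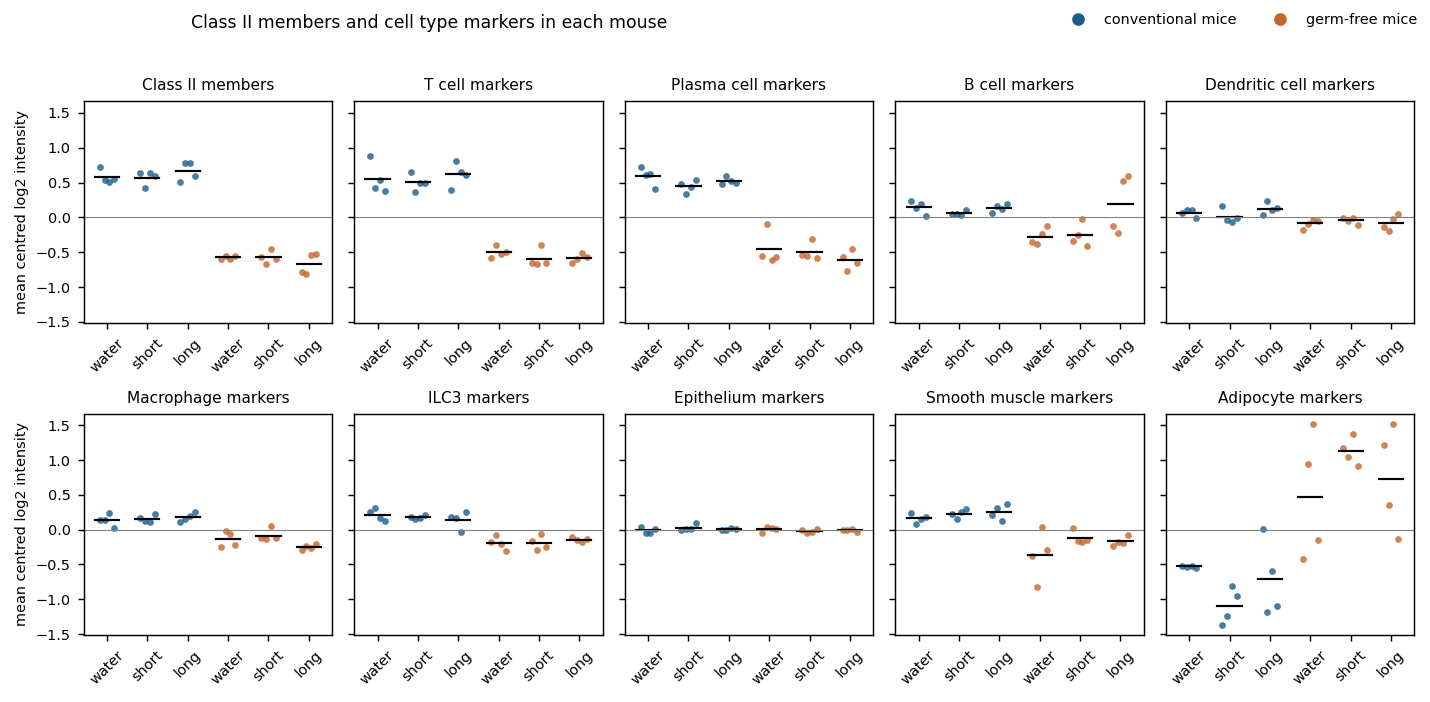
Mean of the centred log2 intensities of the 9 class II genes and of 9 lists of cell type markers in each mouse, by gavage, on 1 common scale. Points are single mice and black lines are group means of 4 mice. The class II genes and the T cell, plasma cell, ILC3 and smooth muscle markers separate all germ-free from all conventional mice, the B cell, dendritic cell and macrophage markers overlap, and the adipocyte markers run the other way.

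B cell markers were called in 3 comparisons that involve a fructan, while no class II gene was. Long-chain against short-chain β2→1-fructan in germ-free mice gave 3 of 10 higher (Ms4a1 0.86, Pax5 0.56 and Cr2 0.56), where 0.739% of all genes were called higher. The interaction with long-chain β2→1-fructan gave 1 of 10 (Cd79b 0.63), where 0.345% of all genes were called higher. All 3 comparisons use the same long-chain germ-free mice. After long-chain β2→1-fructan in germ-free mice, 6 of 10 were called higher than on water (median 0.45, range 0.28 to 0.83), where 0.42% of all genes were called higher, and none had an adjusted p under 0.05. By mouse, the B cell mean was -0.12, -0.22, 0.52 and 0.59, so that mice 3 and 4 carried the difference, and without either of them 1 marker was called. The same mice 3 and 4 were the higher ones of their group for H2-Ob (4.78 and 5.00, against 4.31 and 4.06) and H2-Oa (4.23 and 4.02, against 3.33 and 3.47). Their mean of the 9 class II genes was -0.54 and -0.52, against -0.78 and -0.82 in mice 1 and 2, all below every conventional mouse. The mean of follicle and Peyer's patch genes was 0.02 and 0.22 in mice 3 and 4, against -0.15 and -0.06 in mice 1 and 2. The part of the B cell markers, or of follicle tissue in the piece of ileum, in the values of H2-Oa and H2-Ob was not tested.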

How the data were processed

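Total RNA of terminal ileum was measured on Affymetrix Mouse Gene 1.1 ST arrays, 1 per mouse, in 24 mice. The values are log2 intensities as deposited, made by the authors with RMA (background correction, quantile normalization between arrays, summary per probe set), which can compress the differences of dim probe sets. The methods name a remapped definition of probe sets, whereas the deposited rows carry the manufacturer's numbers. Raw intensities were not used here.

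Of 35556 probe sets, 21218 carried 1 symbol in the platform table, and the brightest set of each gene gave 18820 genes. The fit was made with limma 3.58.1 (R 4.3.3), with 6 group means over all arrays and eBayes with trend, and was tested on simulated data. As in the study, a gene was called at an unadjusted p under 0.01 and over 1.3-fold. Adjusted p are Benjamini-Hochberg over all genes. Exact permutation tests were two-sided, over all 70 divisions of 8 mice or within gavages. Groups came from the sample labels.

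The genes and lists were chosen with earlier results of these data known. Named are all 10 genes, the called or up to 3 strongest genes of each list and the 8 genes most alike, and further list genes were named after their values were seen. Of the remaining lists, follicle, ileal enterocyte, pancreas and blood genes had 1 of 8, 1 of 6, 0 of 4 and 0 of 2 measured genes called lower in germ-free mice, and 1 blood gene was called higher. Positions and promoter windows are from RefSeq (GRCm38.p6).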

Additional observations from a re-analysis of the deposited data

Results flagged for a closer look

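In 60 combinations of a gene or the shared probe set with a group of 4 mice, 5 single values lay far from the other 3 by Dixon's test, where chance gives about 1 in 20. Conventional mouse 1 on water was the highest of its group for H2-Aa (10.94), H2-DMa (8.29) and the probe set shared by H2-DMb1 and H2-DMb2 (7.76), each on the log2 scale. For H2-Ob, conventional mouse 1 after short-chain β2→1-fructan (3.95) and germ-free mouse 4 on water (4.41) were the lowest of their groups. No interaction of colonization and fructan was called for any of the 9 genes.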

How the results depend on the processing

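The alternatives were 1 prior variance without trend, the intensity-based test of the study's methods, fewer arrays in the fit, cyclic loess, averaged probe sets, dim genes left out, array weights, the replicate block and each mouse left out. Under these, no call of a class II gene was lost and no called change turned its sign. No pairing by replicate number was seen. Deviations from the group means correlated with r from -0.11 to 0.12 over 60 same-numbered pairs, 1 of them over 0.1. For 180 pairs with other numbers r was -0.13 to 0.14. These values are over all probe sets and do not exclude a pairing that touches few genes. With the replicate block, 6 genes were called lower in germ-free mice over the 3 gavages, 6 on water, 6 after short-chain and 7 after long-chain fructan, and the block changed no other call. With a mouse left out, 6 to 7 were called over the 3 gavages. The 7th was H2-Oa (-0.38 to -0.41), without conventional mouse 1 of any gavage, germ-free mouse 1 or 3 after short-chain or germ-free mouse 3 or 4 after long-chain fructan. The interaction with long-chain fructan was called in 0 of 9 genes and in 0 to 1 with a mouse left out, the 1 being H2-Aa (-0.44) without conventional mouse 1 on water. With the adipocyte and smooth muscle covariates, added after seeing the data, Ctss was also called over the 3 gavages (-0.55), on water (-0.55) and after short-chain fructan (-0.43). These covariates themselves differed by colonization, so that this fit cannot tell tissue composition from colonization. B cell markers called higher in germ-free mice after long-chain fructan fell from 6 to 3 with the arrays compared alone, and to 1 without dim genes or without mouse 3 or 4. Leaving out dim genes removed H2-Oa and H2-Ob from the fit, and left 3 T cell, 1 B cell and 0 dendritic cell markers called lower. Called dendritic cell markers were 1 without conventional mouse 3 on water, and other class II and peptide loading genes 1 to 2 with a mouse left out and 2 with cyclic loess. Each class II gene has 1 probe set of its own, so averaging could not change it. With 4 arrays per group and no detection calls used here, small changes of H2-Oa and H2-Ob could not be read.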
